A study of Rattus norvegicus with 6 samples.

Results

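Endothelial cells line the blood vessels of the heart, and 10 genes that mark these cells or carry their angiogenic signals were followed here in transplanted rat hearts. The genes were Cdh5, Cldn5, Emcn, Kdr, Flt1, Tek, Tie1, Angpt1, Angpt2 and Nos3, which were taken by name from the 22250 genes of the deposited expression table, and 9 of the 10 had enough reads to be tested. The donors were WT Sprague-Dawley rats, young at 10 weeks (animals 3, 13 and 15) or aged at 1 year (animals 3, 4 and 7), and the rats of the study were male. Every heart had been kept cold after harvest, then placed in a young recipient by heterotopic transplantation, which leaves the recipient's own heart in place, and LV myocardium was frozen on postoperative day 1. The number 3 occurs in both groups but names different hearts. Hearts that had not been transplanted were not analysed here, so a difference of donor age and a difference in the response to storage and transplantation cannot be told apart.

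The genes fall into a few roles. Cdh5 (VE-cadherin) holds neighbouring endothelial cells together at adherens junctions, Cldn5 seals their tight junctions, and Emcn (endomucin) is a mucin-like glycoprotein on the surface of capillary and venous endothelium. Kdr (VEGF receptor 2) carries most of the signal of vascular endothelial growth factor A (VEGF-A), while Flt1 (VEGF receptor 1) binds VEGF-A tightly and signals weakly. Tek (Tie2) is the receptor of the angiopoietins and Tie1 its co-receptor. Angpt1, which comes mostly from cells around the vessel, activates Tek and steadies the vessel wall, whereas Angpt2, which endothelial cells store and release, can block that signal. Nos3 makes nitric oxide in endothelial cells.

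The promoter sequences are shown for Emcn, the only member past the limits below for which a promoter was at hand, and for Kdr and Flt1, the pair of receptors that share VEGF-A. RefSeq promoters (build GRCr8) were matched by symbol to 6 of the 10 genes, namely Kdr, Flt1, Tie1, Nos3, Cldn5 and Emcn. Each sequence is the 250 bases before the annotated start, read 5′ to 3′ on the gene's strand, and capitals mark GGAA or its reverse complement TTCC, the core letters bound by ETS factors, a family to which the endothelial factors Erg and Fli1 belong. The windows lie at chr2:228564289-228564538 for Emcn, chr14:32571813-32572062 for Kdr and chr12:12333180-12333429 for Flt1, each on the plus strand.
Emcn: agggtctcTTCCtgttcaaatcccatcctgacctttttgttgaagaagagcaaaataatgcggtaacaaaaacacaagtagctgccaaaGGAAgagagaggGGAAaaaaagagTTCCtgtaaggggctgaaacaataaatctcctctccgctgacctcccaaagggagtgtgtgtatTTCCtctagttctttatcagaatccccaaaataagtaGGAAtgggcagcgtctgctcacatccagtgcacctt
Kdr: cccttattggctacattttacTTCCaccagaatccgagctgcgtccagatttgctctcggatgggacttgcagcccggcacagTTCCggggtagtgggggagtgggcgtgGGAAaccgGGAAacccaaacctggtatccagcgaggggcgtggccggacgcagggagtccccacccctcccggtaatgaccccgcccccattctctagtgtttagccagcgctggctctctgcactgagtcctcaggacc
Flt1: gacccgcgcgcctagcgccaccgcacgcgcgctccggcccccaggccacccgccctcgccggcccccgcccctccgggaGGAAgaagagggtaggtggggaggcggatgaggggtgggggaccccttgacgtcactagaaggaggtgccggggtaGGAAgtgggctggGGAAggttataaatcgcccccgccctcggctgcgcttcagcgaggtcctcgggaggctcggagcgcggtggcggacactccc
The core occurred 6 times before Emcn, 4 times before Kdr and 3 times before Flt1. It was also present in 93.21% of 27457 rat promoters of the same length, with a median of 3 matches, and 9.2% of them held as many matches as Emcn or more. The core letters ACGTG or GCGTG, bound by hypoxia-inducible factors, were searched on both strands and can share the last A of GGAA. They occurred 2 times before Kdr, 1 time before Flt1 and 0 times before Emcn, against at least 1 match in 37.88% of all promoters. Matches describe these letters only.

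Young donor hearts had 21457509 to 22277905 and aged donor hearts 22508040 to 24560869 reads on genes. The 13 mitochondrial genes took 11.9% to 21.7% of them in young and 6.56% to 10.3% in aged hearts, and the scaling factors ran from 0.733 to 1.09 and from 1.13 to 1.24, both without overlap. The part of the mitochondrial share in the results was not tested. Fits without the scaling factors, by library totals alone, are given below. Counts were scaled by TMM, a trimmed mean of the log ratios between libraries, and are written as CPM, the usual unit that divides the reads of a gene by the scaled size of its library. The groups were compared by edgeR's quasi-likelihood test over 13784 genes. A gene was called past the limits when its unadjusted p-value was under 0.05 and its fold change above 1.5 or under 0.67, the limits of the study. By that rule 4436 of the 13784 genes were past the limits, of which 1815 had their higher level in the aged group and 2621 in the young group. The p-values adjusted by Benjamini-Hochberg in edgeR started at 0.0916, so that 0 genes were under 0.05, although 4731 were under it before adjustment, and DESeq2 and limma-voom put 3541 and 8417 genes under an adjusted 0.05. These counts rested on single hearts. Without young animal 15, 7214 of 14109 genes (51.1%) were past the limits, 3802 higher and 3412 lower, and 6815 had an edgeR adjusted p under 0.05. Without young animal 3 or 13 the counts were 2432 and 2495, and for each left-out heart other than young animal 15 the number under an adjusted 0.05 was 0. Young animal 15 stood apart from the other two young hearts in the cell type markers. The summed level of 10 cardiomyocyte markers was 89718 and 99130 CPM in young animals 3 and 13, 12147 CPM in young animal 15 and 584 to 6974 CPM in aged hearts. Macrophage markers (10 genes) ran from 333 to 2380 CPM in young and from 3732 to 7203 CPM in aged hearts, and neutrophil markers (12 genes) from 135 to 329 and from 651 to 1865 CPM. Much of the macrophage sum came from 1 gene, Lyz2, at 1405 CPM in young animal 15 and 2694 to 4751 CPM in aged hearts. No marker of these lists was at 0 in all hearts. The part of this difference in cell type markers in the results on endothelial genes was not tested.

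Endothelial genes as a set had reads in every heart. The 21 other endothelial genes of a pan-endothelial list found in the table, among them Vwf, Eng, Esam, Egfl7 and Robo4, summed to between 2376 and 4119 CPM in young and between 1918 and 2921 CPM in aged hearts, so the groups overlapped. Levels within the list were uneven. Aqp1 had a mean of 806 CPM in young and 200 CPM in aged hearts, and Robo4 0.36 and 0.57 CPM. Pecam1 and Cd93, which are also on that list, were not found by name and are not analysed here. The mean log2 CPM of the 21 genes was 6.35 ± 0.33 (SD, n = 3) in young and 6.003 ± 0.35 (SD, n = 3) in aged hearts, a difference of -0.35 (exact two-sided permutation test, p = 0.3, where 3 hearts against 3 allow no p below 0.1). Scaling by library totals alone turned the direction of that difference, to 0.11. That scaling also moved the median log2 fold change of all genes from 0.02 to 0.46. In bulk tissue, fewer endothelial cells and less RNA per cell cannot be told apart.

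Of the 9 members tested, 3 were past the limits. Angpt2 was higher in aged donor hearts, and Angpt1 and Emcn were lower. The 3 of 9 stand beside 32.2% of all genes tested, the 1 higher beside 13.2% and the 2 lower beside 19.0%, so the share of members called was near that of all genes. The same 3 members were those without overlap between the groups, and 41.6% of all genes tested had none. The median log2 fold change of the 9 members was -0.29, against 0.02 for all genes, and its sign turned under library totals. The other 6 members, which include both receptors of VEGF-A, both Tie receptors, Cdh5 and Nos3, overlapped between the groups and were not past the limits.

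**Figure D1:**
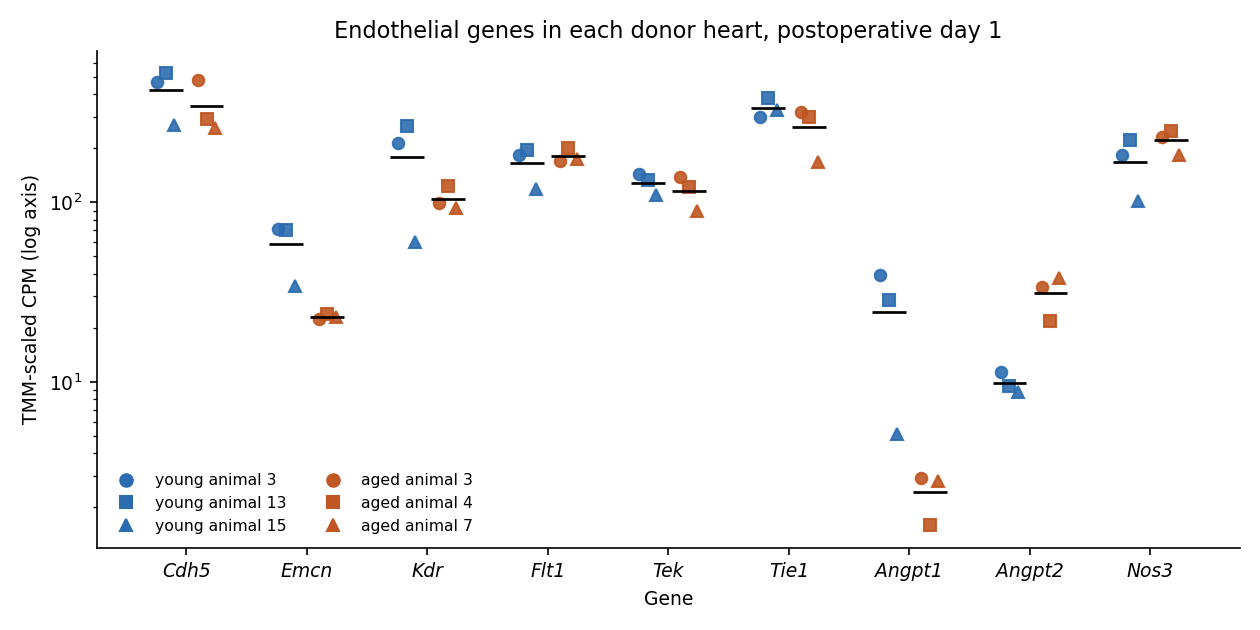
TMM-scaled CPM on a log axis for the 9 members with reads, 1 point per heart, with young donor hearts in blue, aged donor hearts in orange and black bars at group means (n = 3 each). Only Emcn, Angpt1 and Angpt2 show no overlap between the groups, and Cldn5, with 0 reads in every heart, is not drawn.

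Among the junction and surface genes, Cdh5 was not past the limits. It stood at 469.5, 523.3 and 269.1 CPM in young animals 3, 13 and 15, and at 481.1, 293.2 and 260.6 CPM in aged animals 3, 4 and 7. Aged animal 3 lay among the highest young hearts and young animal 15 among the lowest aged hearts. The log2 fold change was -0.29 ± 0.38 (SE), with a 95% interval from -1.19 to 0.62 and an adjusted p of 0.596 in edgeR, and it turned to 0.25 when scaled by library totals.

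Emcn (ENSRNOG00000022910, chr2:242634399-242714182, plus strand, Rnor_6.0) fell by 1.34 on the log2 scale, which is 2.52-fold lower in aged donor hearts. Its level was 70.8, 70.2 and 34.1 CPM in young animals 3, 13 and 15, and 22.3, 24.0 and 22.9 CPM in aged animals 3, 4 and 7. All 3 aged hearts lay below all 3 young hearts and within a narrow band, while young animal 15 was the young heart nearest to them. The standard error was 0.30, the 95% interval ran from -2.07 to -0.60, and the edgeR p-value was 0.0039, with an adjusted p of 0.0916. Across the fits that left out 1 heart, the log2 fold change ran from -1.57 to -1.17 and the adjusted p was lowest without young animal 15 (0.00117) and highest without young animal 3 (0.277).

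Cldn5 had 0 reads in all 6 hearts, which allows at most 3 reads per library, or 0.122 to 0.14 CPM of the library total without TMM, and counting error is all that this limit covers. Its locus, chr11:86356294-86357718 on the minus strand of Rnor_6.0, lies wholly inside the locus of Cdc45 (chr11:86329012-86358453, plus strand), a DNA replication gene with 88 to 361 reads in young and 260 to 523 reads in aged hearts. Of the 4664 genes without a read in any heart, 6.52% lay wholly inside another gene, against 3.29% of the 17586 genes with reads. Whether the counting of reads over overlapping genes set the 0 was not tested, and the value is not read as absence of Cldn5 RNA.

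The receptors of VEGF-A did not pass the limits. Kdr stood at 214.3, 265.0 and 59.9 CPM in young animals 3, 13 and 15, and at 98.8, 122.8 and 93.6 CPM in aged animals 3, 4 and 7. Young animal 15 had the lowest Kdr of all 6 hearts, below every aged heart, and the other 2 young hearts lay above every aged heart. The log2 fold change was -0.77 ± 0.52 (SE), with a 95% interval from -2.03 to 0.48 and an adjusted p of 0.305 in edgeR. Without young animal 15, Kdr was past the limits, as were 51.1% of all genes in that fit, with a log2 fold change of -1.15 and an edgeR adjusted p of 0.00602, and with any other heart left out it was not (adjusted p up to 0.69).

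Flt1 stood at 182.7, 197.0 and 118.5 CPM in young animals 3, 13 and 15, and at 170.8, 200.04 and 173.4 CPM in aged animals 3, 4 and 7. Apart from young animal 15, which was lowest, the 5 hearts lay close together. The log2 fold change was 0.13 ± 0.25 (SE, edgeR adjusted p = 0.726), it was -0.03 without young animal 15, and scaling by library totals moved it to 0.63 and past the limits.

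Per base of transcript, Flt1 was below Kdr in 2 young hearts, at ratios of 0.775 and 0.676 in animals 3 and 13, but above it in young animal 15, at 1.80. In the aged hearts the ratio of Flt1 to Kdr was 1.57, 1.48 and 1.68. The mean log2 ratio was -0.03 ± 0.76 (SD, n = 3) in young and 0.66 ± 0.09 (SD, n = 3) in aged hearts, a difference of 0.69 that was within the spread of the young hearts (exact two-sided permutation test, p = 0.4). Leaving out young animal 15 moved the difference to 1.12.

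Neither Tie receptor passed the limits. Tek stood at 143.6, 132.6 and 110.0 CPM in young animals 3, 13 and 15, and at 138.1, 121.5 and 89.7 CPM in aged animals 3, 4 and 7, so the groups overlapped almost throughout. Its log2 fold change was -0.14 ± 0.23 (SE, edgeR adjusted p = 0.664), and library totals turned it to 0.33. Tie1 stood at 299.6, 382.1 and 327.1 CPM in young animals 3, 13 and 15, and at 319.4, 298.2 and 168.4 CPM in aged animals 3, 4 and 7, with aged animal 7 lowest. Its log2 fold change was -0.36 ± 0.30 (SE, edgeR adjusted p = 0.408), and library totals turned it to 0.10. The ratio of Tie1 to Tek per base of transcript ran from 2.08 to 2.96 in young and from 1.87 to 2.45 in aged hearts, with a difference in mean log2 ratio of -0.25 (exact two-sided permutation test, p = 0.3).

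The angiopoietins, the ligands of Tek, moved in opposite directions. Angpt1 (ENSRNOG00000005854, chr7:81342280-81592206, minus strand, Rnor_6.0) stood at 39.3, 28.7 and 5.12 CPM (650, 452 and 124 reads) in young animals 3, 13 and 15, and at 2.92, 1.59 and 2.80 CPM (89, 42 and 73 reads) in aged animals 3, 4 and 7. The aged hearts all lay below the young hearts, with young animal 15 much nearer to the aged hearts than to the other young hearts. Angpt1 was 9.97-fold lower in aged donor hearts, with a log2 fold change of -3.32 ± 0.76 (SE), a 95% interval from -5.14 to -1.49 and an edgeR p-value of 0.004 (adjusted p = 0.0916). Across the fits that left out 1 heart, the log2 fold change ran from -3.76 to -2.79 and the adjusted p was lowest without young animal 15 (0.00133) and highest without young animal 3 (0.277).

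Angpt2 (ENSRNOG00000016696) stood at 11.3, 9.47 and 8.83 CPM in young animals 3, 13 and 15, and at 33.6, 21.9 and 37.8 CPM in aged animals 3, 4 and 7. Here young animal 15 did not lie near the aged hearts but was the lowest of all 6. Angpt2 was 3.15-fold higher in aged donor hearts, with a log2 fold change of 1.66 ± 0.26 (SE), a 95% interval from 1.02 to 2.29 and an edgeR p-value of 0.000591 (adjusted p = 0.0916). Across the fits that left out 1 heart, the log2 fold change ran from 1.501 to 1.86 and the adjusted p was lowest without young animal 15 (0.00717) and highest without young animal 3 (0.277). The Angpt2 locus (chr16:75966352-76016195, plus strand, Rnor_6.0) lies inside that of Mcph1 on the opposite strand, which had 44 to 223 reads in young and 179 to 242 reads in aged hearts, and the use of strand in counting is not given in the sources used here.

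The ratio of the ligands within each heart separated the groups. Per base of transcript, Angpt2 was at 0.223 and 0.256 of Angpt1 in young animals 3 and 13 and at 1.33 in young animal 15, but at 8.87, 10.6 and 10.4 times Angpt1 in aged animals 3, 4 and 7. The mean log2 ratio of Angpt2 to Angpt1 was -1.24 ± 1.44 (SD, n = 3) in young and 3.31 ± 0.14 (SD, n = 3) in aged hearts. The difference of 4.55 on the log2 scale is a 23.4-fold higher ratio, and all 3 aged hearts lay above all 3 young hearts (exact two-sided permutation test, p = 0.1, the smallest that 3 hearts against 3 allow). This ratio needs no scaling between libraries. Angpt1 is made by cells around the vessel, and mural cell markers (9 genes) summed to 1126 to 1795 CPM in young and 971 to 1136 CPM in aged hearts, with overlap. Of these 9 genes, 0 were higher and 2 lower past the limits (Rgs5 and Abcc9), beside 13.2% and 19.0% of all genes tested. The part of the mural markers in the Angpt1 difference was not tested, nor was that of the cardiomyocyte markers, which did not overlap between the groups.

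**Figure D2:**
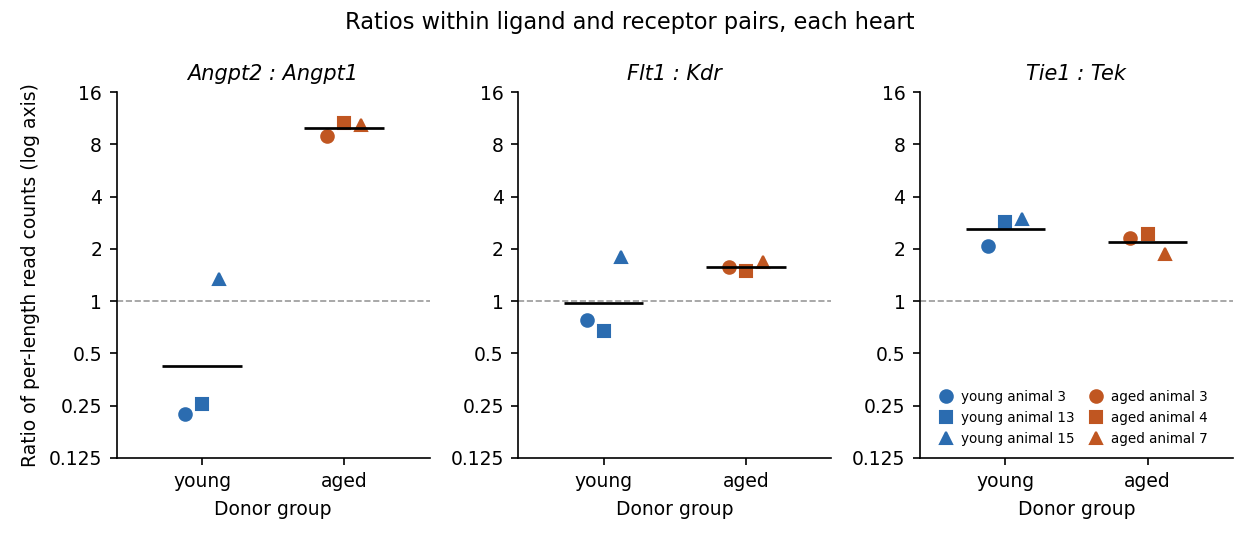
Ratio of per-length read counts in each heart for Angpt2 to Angpt1, Flt1 to Kdr and Tie1 to Tek (log axis, black bars at the mean of the log2 ratios, n = 3 hearts a group). The Angpt2 to Angpt1 ratio was 8.87 to 10.6 in aged and 0.223 to 1.33 in young hearts, while the groups overlapped for the other two ratios.

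Nos3 stood at 182.9, 222.0 and 101.5 CPM in young animals 3, 13 and 15, and at 231.9, 251.3 and 184.1 CPM in aged animals 3, 4 and 7. Young animal 15 was again lowest, and young animal 13 lay within the aged range. The log2 fold change was 0.40 ± 0.33 (SE), with an adjusted p of 0.397 in edgeR, and library totals moved it to 0.92 and past the limits. Nos3 shares 362 bases with Atg9b on the other strand, a gene with 9 to 46 reads in each heart.

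Across the members, levels per base of transcript were highest for the junction gene Cdh5 and the co-receptor Tie1. In young hearts Cdh5 had 104.5 ± 33.3 CPM per kb (SD, n = 3) and Tie1 73.5 ± 9.18 CPM per kb, and the ranges of these neighbours overlapped. They were followed, past a gap between the ranges, by Emcn (42.0 CPM per kb), Nos3 (31.4), Kdr (28.4), Tek (28.2), Flt1 (23.8), Angpt1 (12.9) and Angpt2 (4.04), where each gene overlapped with the next. In aged hearts the order began with Cdh5 (85.7 CPM per kb), Tie1 (57.3) and Nos3 (41.3). Past a gap came Flt1 (26.0) and Tek (25.5), and past another gap Emcn (16.6), Kdr (16.6) and Angpt2 (12.7). Angpt1 (1.29) was last, past a further gap. By group means the endpoints of the order thus differed, with Angpt2 last in young hearts and Angpt1 last in aged hearts. In young animal 15, however, Angpt1 (2.71 CPM per kb) lay below Angpt2 (3.62 CPM per kb), as in the aged hearts. Emcn held rank 3 in young and rank 6 in aged hearts.

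Set against the mean log2 CPM of the 21 other endothelial genes in the same heart, 5 members did not overlap between the groups. Angpt1 lay -2.18 ± 1.25 (SD, n = 3) from that mean in young and -4.72 ± 0.68 in aged hearts, and Emcn -0.56 ± 0.28 and -1.47 ± 0.35. Angpt2 lay -3.04 ± 0.26 from it in young and -1.08 ± 0.68 in aged hearts. Flt1 and Nos3, which were not past the limits on their own, lay 0.99 ± 0.06 and 0.97 ± 0.26 above the mean in young hearts and 1.498 ± 0.33 and 1.78 ± 0.15 above it in aged hearts. For each of these 5 members the exact two-sided permutation test gave p = 0.1, the smallest possible, and 0.18 after Benjamini-Hochberg adjustment over the 9 members. The differences between the groups were 0.07 for Cdh5, -0.18 for Kdr, 0.19 for Tek and -0.06 for Tie1, with overlap in each. The sign for Cdh5, Kdr and Tie1 turned when single hearts were left out. The mean of the 21 genes itself differed by -0.35 between the groups (aged minus young). Subtracting it therefore raised the difference of every member, to 0.51 for Flt1 and 0.81 for Nos3. The share of all genes without overlap on this relative scale was not computed, so the 5 members have no background share here. On CPM itself, 3 of the 9 members and 41.6% of all genes tested had no overlap.

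**Figure D3:**
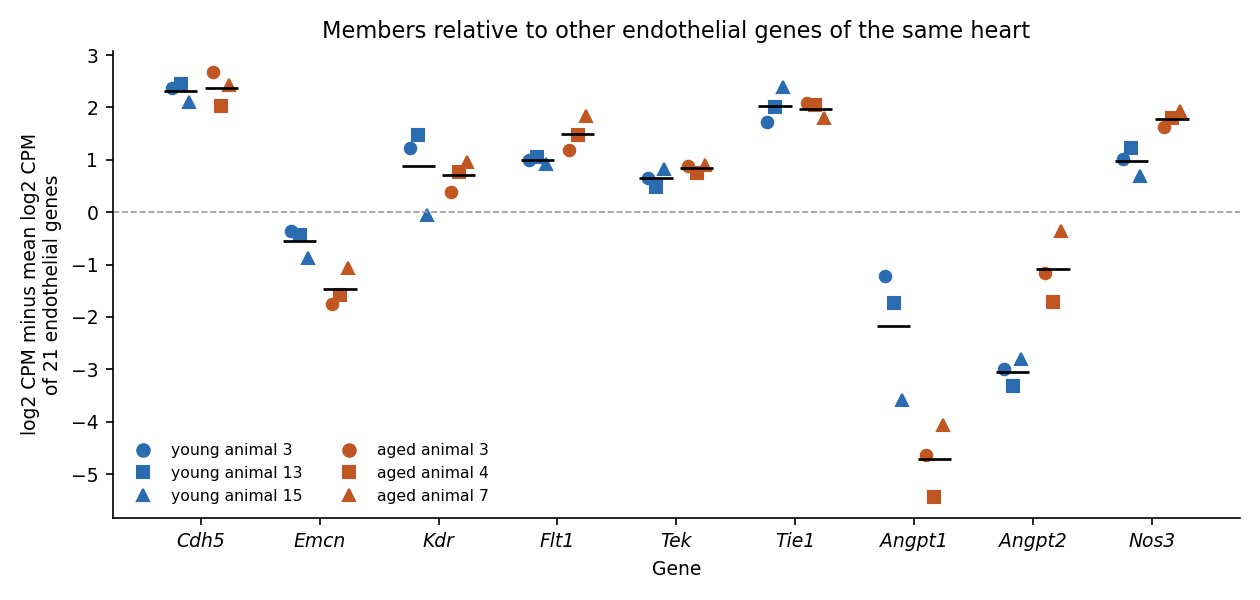
Log2 CPM of each member minus the mean log2 CPM of 21 other endothelial genes in the same heart (dashed line at 0), 1 point per heart, black bars at group means (n = 3). Cdh5, Kdr, Tek and Tie1 overlapped between the groups, while Flt1, Nos3 and Angpt2 lay higher and Emcn and Angpt1 lower in all 3 aged hearts. The share of all genes without overlap on this scale was not computed.

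The partners of these receptors and ligands included genes past the limits in both directions. Of 11 genes listed as VEGF and angiopoietin partners, 3 were higher (Vegfd, Pgf and Flt4), 3 were lower (Vegfa, Vegfb and Nrp1) and 5 did not pass, and the median log2 fold change was 0.30, against 0.02 for all genes. These 6 of 11 stand beside 32.2% of all genes tested. Without young animal 15, 8 of the 11 passed, 5 higher and 3 lower, where 51.1% of all genes did, and without young animal 13 only 4 passed, where 17.7% did. With library totals 7 passed, 5 higher and 2 lower, where 33.3% of all genes did. Nrp1 was no longer among the 7, at a log2 fold change of -0.28. The call of Vegfa was lost without young animal 13, aged animal 3 or aged animal 4 (edgeR unadjusted p up to 0.0746), and that of Vegfd without young animal 3 or 13 (p up to 0.0535).

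Among the ligands of Flt1, the direction was mixed. Vegfa, the main angiogenic ligand of Kdr and Flt1, stood at 1035, 1216 and 165.7 CPM in young animals 3, 13 and 15, and at 55.4, 112.6 and 228.9 CPM in aged animals 3, 4 and 7. Young animal 15 lay within the aged range, and Vegfa was 6.09-fold lower in aged donor hearts (log2 fold change -2.61 ± 0.86 (SE), edgeR adjusted p = 0.104). Vegfb, which binds Flt1 and not Kdr, fell from 258.0, 266.1 and 64.1 CPM to 29.2, 52.7 and 59.3 CPM, without overlap (log2 fold change -2.06 ± 0.58 (SE), edgeR adjusted p = 0.0924). Pgf, placental growth factor and likewise a ligand of Flt1, was 11.03-fold higher. It stood at 3.33, 3.56 and 9.58 CPM in young animals 3, 13 and 15 and at 100.9, 14.5 and 67.5 CPM in aged animals 3, 4 and 7, so that the groups did not overlap but the aged hearts varied widely (log2 fold change 3.46 ± 0.81 (SE), edgeR adjusted p = 0.0916). Left-out hearts moved the log2 fold change of Pgf between 2.90 (without aged animal 3) and 4.19 (without young animal 15), that of Vegfa between -3.25 (without aged animal 7) and -2.18, and that of Vegfb between -2.44 and -1.77. The part of the cardiomyocyte marker sums in Vegfa and Vegfb was not tested.

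On the lymphatic side, Vegfd, a ligand of Flt4 (VEGF receptor 3), was 2.69-fold higher, with 14.2 to 20.0 CPM in young and 27.5 to 76.4 CPM in aged hearts (edgeR adjusted p = 0.0985), and its log2 fold change moved from 1.43 to 0.77 without aged animal 3. Flt4 was 2.33-fold higher, with 22.7 to 48.3 CPM in young and 58.0 to 91.0 CPM in aged hearts (edgeR adjusted p = 0.0923). Vegfc, the other ligand of Flt4, had a log2 fold change of 0.62 ± 0.26 (SE) and an unadjusted p of 0.0501, just outside the limit. Flt4 also counts among the 7 lymphatic endothelial markers, of which Pdpn and Reln were higher too and Prox1, the factor that sets lymphatic identity, was lower. The part of the cardiomyocyte marker sums in Prox1 was not tested. The call of Pdpn was lost without any 1 heart other than young animal 15 (edgeR unadjusted p up to 0.077). The sum of the 7 was 221 to 226 CPM in young and 348 to 507 CPM in aged hearts, but the sum of the 6 other than Pdpn was 153 to 220 and 186 to 248 CPM, with overlap. Nrp1, a co-receptor of Kdr, was 1.70-fold lower, from 214.0 to 289.9 CPM in young and from 140.1 to 160.3 CPM in aged hearts (edgeR adjusted p = 0.092). Nrp2, Ptprb, Svep1 and Angpt4 did not pass, with log2 fold changes from -0.44 to 0.67.

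**Figure D4:**
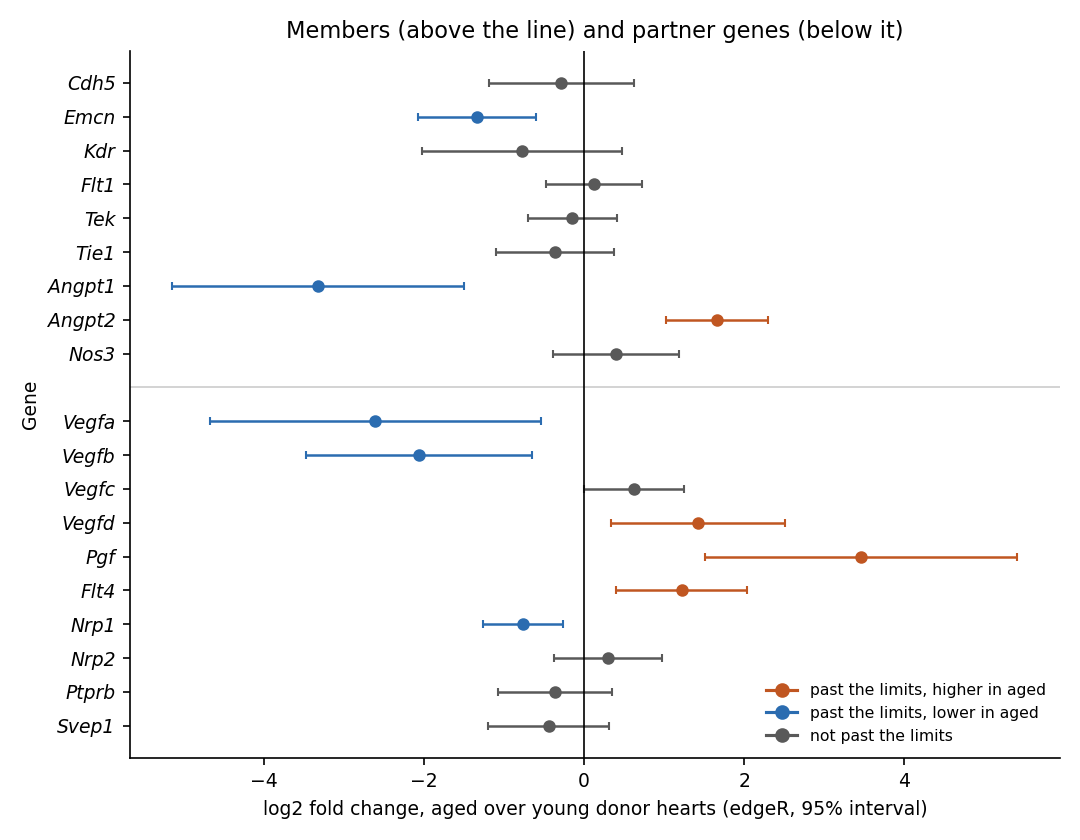
Log2 fold change of aged over young donor hearts with its 95% interval (edgeR, TMM scaling) for the 9 members tested, above the line, and for 10 of the 11 partner genes, below it, with Angpt4 left out for its few reads. Under library totals the signs of Cdh5, Tek, Tie1 and Ptprb turn, while the genes past the limits here keep theirs.

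Other endothelial lists are given by their counts, beside which 13.2% of all genes tested were higher and 19.0% lower. Of 21 pan-endothelial genes tested, 2 were higher and 3 lower. Ecscr and Esam rose 1.98-fold and 1.73-fold, Aqp1 (a water channel of capillary endothelium) and Cd34 (a surface sialomucin) were 4.03-fold and 2.96-fold lower, and Vwf did not pass, with a log2 fold change of 0.15 ± 0.34 (SE). Of 20 endothelial transcription factors, 2 were higher and 2 lower. Lyl1 and Lmo2, which also act in blood cells, rose 2.47-fold and 2.31-fold, and Gata2 and Foxo1 were 1.92-fold and 1.79-fold lower, with the groups overlapping in both. The macrophage and neutrophil marker sums given above did not overlap between the groups either, and their part in Lyl1 and Lmo2 was not tested.

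Of 14 genes of Notch signalling and arteriovenous identity, 0 were higher and 3 lower past the limits by edgeR, namely Aplnr (6.60-fold lower, or 13.9-fold without aged animal 4), Hey2 (3.61-fold lower) and Hes1. Aplnr, the apelin receptor, stood at 102.7 to 202.9 CPM in young and 10.3 to 49.3 CPM in aged hearts, without overlap. Of 12 tip cell and sprouting genes, 2 were higher and 0 lower by edgeR, Pgf, given above, and Adm (2.58-fold), which encodes the vasoactive peptide adrenomedullin. Around nitric oxide, 4 of 14 genes were higher and 3 lower. Nos2, the inducible synthase, stood at 0.289 to 0.636 CPM (7 to 10 reads) in young and 1.63 to 5.94 CPM (43 to 181 reads) in aged hearts, and was 8.35-fold higher. Arg1, which uses the same substrate arginine, was 25.2-fold higher, or 92.9-fold without young animal 15. It had 11, 35 and 302 reads in young animals 3, 13 and 15. The part of the macrophage and neutrophil marker sums in Nos2 and Arg1 was not tested. Ddah2 and the guanylate cyclase subunit Gucy1a1 were 2.07-fold and 3.32-fold lower. Of 15 junction genes, 0 were higher and 5 lower by edgeR, including Jup and Jam2, both 2.51-fold lower. Where these counts were 0, DESeq2 also gave 0, whereas limma-voom gave 1 Notch gene higher and 1 sprouting gene lower. The cardiomyocyte marker sums given above did not overlap between the groups, and their part in the Notch and junction genes was not tested.

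The list counts depended on single hearts and on scaling. The calls of Esam, Adm, Jup, Hey2, Gata2 and Foxo1 were lost when 1 of several hearts was left out (edgeR unadjusted p up to 0.084, 0.0529, 0.0837, 0.0822, 0.108 and 0.137), for Adm only aged animal 3, for Esam young animal 3, aged animal 3 or 4, for Jup young animal 3 or 13 or aged animal 7. Hey2 lost it without young animal 3 or 13 or aged animal 3 or 4, Gata2 without young animal 3 or 13 or aged animal 4 or 7, and Foxo1 without any 1 heart other than young animal 15. The same held for Hes1 without young animal 3 or 13 or aged animal 4 (p up to 0.0582). Across left-out hearts the pan-endothelial count ran from 5 to 8 of 21, that of the transcription factors from 2 to 9 of 20, that of the Notch list from 1 to 6 of 14, that of the sprouting list from 1 to 4 of 12, that of the nitric oxide list from 5 to 9 of 14 and that of the junction list from 2 to 4 of 15. Young animal 15 gave the highest count when left out in each of these lists except the sprouting list, and in the junction list it shared it with aged animal 4, while all genes ran from 17.3% to 51.1%. With library totals the Notch list had 3 genes higher and 1 lower, the transcription factors had 6 higher and 0 lower, the junction count was 1 of 15, Gata2, Foxo1, Hes1, Hey2, Ddah2 and Jup were not past the limits, and across all genes 3147 were higher and 1440 lower, where the median log2 fold change of all genes was 0.46. Of 52 tested genes that the table assigns to the KEGG VEGF signaling pathway, 9 were higher and 9 lower, beside the 13.2% and 19.0% of all genes, with a median log2 fold change of 0.04.

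**Figure D5:**
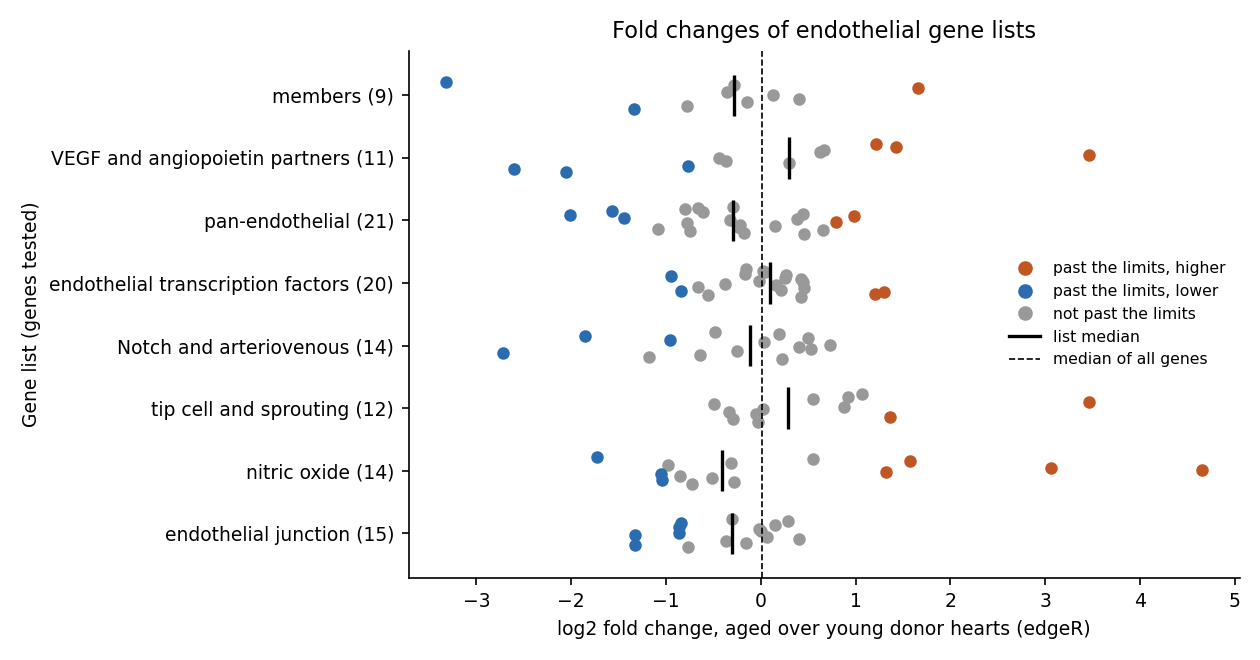
Log2 fold change of each tested gene in the members and 7 endothelial lists (edgeR, TMM scaling), with genes past the limits in orange (higher in aged) or blue (lower), thick bars at list medians and the dashed line at the median of all genes, 0.02. List medians lie between -0.41 and 0.30, and under library totals the medians of the members and of the pan-endothelial, Notch, nitric oxide and junction lists turn positive.

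Over the 6 hearts, log2 CPM of Emcn went with that of Angpt1 (Pearson's r = 0.98) and that of Nos3 with that of Flt1 (r = 0.93), whereas Angpt2 and Emcn ran opposite (r = -0.80). These are descriptions over 6 points that share the donor groups and the position of young animal 15. Among 12919 genes with a mean of at least 1 CPM, those whose pattern was most like that of Cdh5 were Card19 (r = 0.997), Rab11fip4, Nkg7, Pcdhb19 and Prdm9. Those most like Angpt2 were Exosc3 (r = 0.993), Spry4, Alkbh2, Bhlhe22 and Trib3.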

How the data were processed

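RNA-Seq of LV myocardium covered 3 young and 3 aged donor hearts, grouped by the labels. The authors deposited 1 table with raw read counts and FPKM values per gene and heart. The deposited FPKM values were checked against count, gene length and library total (1 of 133500 values differed by more than 0.1%) and were not tested. The submitters' processing notes name HISAT2 2.0.5, StringTie 1.3.3b, featureCounts 1.5.0-p3, DESeq2 1.16.1, GATK 3.7 and Rnor_6.0, with no roles, and the use of strand is not given in the sources used here. The table's gene, pathway and position columns, which the authors deposited as other annotation, were used as given.

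The main test was edgeR 4.0.16 (filterByExpr, TMM, glmQLFit, glmQLFTest, no covariate) in R 4.3.3, with DESeq2 1.42.0 and limma 3.58.1 as alternatives, and permutation tests ran in Python 3.11.15. Standard errors were derived from the F statistic and the log2 fold change. Log2 CPM used a prior count of 2, and ratios used counts plus 0.5 divided by gene length. The steps were tested on simulated data. With 21457509 to 24560869 reads a heart, the floor of 3 reads is 0.122 to 0.14 CPM of the total. The edgeR p-values set the difference between the groups against the spread of hearts within the groups. The permutation p-values set that difference against all regroupings of the hearts. Both rest on these 6 samples only.

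The members and the gene lists were chosen with earlier results of these data known, so lists are described by counts, and the one comparison of a list's mean, that of the pan-endothelial reference, is no independent support. Named genes were all 10 members, every VEGF and angiopoietin partner, from each other endothelial list at most 2 higher and 2 lower genes with the largest fold change past the limits and a mean of at least 1 CPM, Pecam1 and Vwf, at most 2 abundant markers per cell type, and the 5 genes most like Cdh5 and most like Angpt2. Other genes of a list are named only as members of its count, chosen after their values were seen. The alternatives for the partner and list counts were also added after seeing the data. Other marker lists gave sums in young and aged hearts of 6363 to 8177 and 2341 to 4486 CPM (7 fibroblast genes), 132 to 281 and 88.4 to 107 CPM (5 endocardial genes), 131 to 1137 and 49.4 to 607 CPM (3 red blood cell genes) and 26.6 to 83.4 and 105 to 152 CPM (8 T cell genes).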

Additional observations from a re-analysis of the deposited data

How the results depend on the processing

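The calls of Angpt1, Angpt2 and Emcn were kept under every scaling, filter, tool and left-out heart tried, and Kdr, Cdh5, Flt1 and Nos3 changed. The count of members past the limits was 3, but 5 with library totals (with Flt1 and Nos3), 5 with limma-voom (with Cdh5 and Kdr), 0 with an adjusted p under 0.05 in edgeR (against 3 in DESeq2, 5 in limma-voom and 4 in edgeR without young animal 15), and 3 to 4 across the fits that left out 1 heart. The partner count was 6, from 4 to 8 across left-out hearts and up to 9 with limma-voom. Beside these counts, 32.2% of all genes were past the limits in the main fit. That share was 33.3% with library totals, 54.4% with limma-voom and 17.3% to 51.1% across left-out hearts. Library totals turned the log2 fold changes of Cdh5 to 0.25, Tek to 0.33, Tie1 to 0.10 and Ptprb to 0.13, and that of the endothelial reference to 0.11, and moved the median of all genes from 0.02 to 0.46. Flt1 turned to -0.050 with limma-voom. Across left-out hearts Flt1 ran from -0.028 (without young animal 15) to 0.27, Tek from -0.28 to 0.019 (without aged animal 7) and Vwf from -0.18 to 0.34, turning without young animal 13 (-0.021) or aged animal 4. Over the left-out hearts the reference ran from -0.54 to -0.15, the log2 ratio difference from 4.08 to 5.37 for Angpt2 to Angpt1, 0.42 to 1.12 for Flt1 to Kdr and -0.41 to -0.13 for Tie1 to Tek. Relative to the reference, Cdh5 ran from -0.084 to 0.24, Kdr from -0.65 to 0.12 and Tie1 from -0.22 to 0.12, with 0.0099 for Tie1 against the list's median. The cause of these changes was not tested. No paired analysis was possible because the groups share only 1 animal number, which names different hearts. With 3 hearts a group, no permutation test could go below 0.1, and Angpt1, at 42 to 89 reads in aged hearts, is the tested member with the fewest reads.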
